A study of Homo sapiens with 12 samples.

Results

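The enzymes that build fatty acids and put double bonds into them were examined as a group of 10 genes, chosen by symbol with earlier results of these data known: ACLY, ACACA, FASN, SCD, ELOVL6, ELOVL5, FADS1, FADS2, ACSS2 and ME1. All 10 were found in each of the 3 expression tables, which list 16489 symbols for HCC70, 18215 for MDA-MB468 and 55744 for a separate MDA-MB468 experiment. HCC70 and MDA-MB468 are established triple-negative breast cancer (TNBC) cell lines, used at passages 6 to 9. HCC70 was grown in RPMI with serum, while for MDA-MB468 the sources differ: the sample labels give RPMI with serum and insulin, and the published methods DMEM with serum. Each line was given 5 treatments: vehicle, XY018 (an antagonist of RORγ) at 1.25 μM, XY018 at 2.5 μM, atorvastatin (ATV, a statin) at 1.25 μM, and XY018 combined with ATV, both at the 1.25 μM dose. The separate MDA-MB468 experiment had vehicle and a second RORγ antagonist, GSK805, at 2.5 μM. Every treatment lasted 24 h and gave 1 library, so there are 12 libraries and no replicates. RORγ is a nuclear receptor that acts as a transcription factor, and statins block HMG-CoA reductase, an enzyme of cholesterol synthesis. The study asked what the antagonists and the statin do to gene expression in TNBC cells, with cholesterol synthesis as its main interest, and the fatty acid enzymes draw on the same acetyl-CoA.

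Cells make fatty acids from acetyl-CoA in the cytosol. ATP citrate lyase (ACLY) splits citrate and ACSS2 activates acetate to give acetyl-CoA, and malic enzyme 1 (ME1) supplies NADPH. Acetyl-CoA carboxylase (ACACA) makes malonyl-CoA, from which fatty acid synthase (FASN) builds palmitate. ELOVL6 lengthens palmitate, ELOVL5 lengthens polyunsaturated chains, SCD places the first double bond in saturated chains, and the desaturases FADS2 and FADS1 act in turn on polyunsaturated chains. Many of these genes are known targets of the SREBP transcription factors, which are held back when sterols are plentiful, and SREBP-1c is itself made under control of the oxysterol receptor LXR.

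Levels are FPKM, fragments scaled by transcript length and by library size, and changes are log2 ratios of treated to vehicle level with 0.1 FPKM added to both. The authors normalized the 3 tables separately, so ratios were formed within a table unless said otherwise. All comparisons of one table share its vehicle library. Genes counted as lower or higher differed by at least 1.5-fold and reached 1 FPKM in one library or both, a level that all 10 enzymes passed in all 9 comparisons. With 1 library per condition no test was possible, so "rose", "fell", "raised" and "lowered" mean only that a gene passed 1.5-fold against the library named. Intervals in brackets are 95% counting intervals from fragment numbers estimated from the spacing of low FPKM values. They were computed without the added 0.1 FPKM, cover counting error only, and leave out the variation between cultures and library preparations. Estimated depth was 9080000 to 10100000 fragments in HCC70, 17900000 to 20100000 in the MDA-MB468 experiment with XY018 and ATV, and 8420000 and 8740000 in the GSK805 experiment. The enzymes held between 66 estimated fragments (ELOVL6 with GSK805) and 107022 (FASN with ATV in MDA-MB468), with a median of 1601. In bulk RNA, fewer cells of a type and less RNA per cell cannot be told apart. Of the 5 basal markers, KRT5, KRT17 and EGFR lay between 40.3 and 944 FPKM over the 12 libraries, while KRT6A (at most 0.14 FPKM) and KRT14 (0.45 to 4.67) were low in the MDA-MB468 experiment with XY018 and ATV. Of the 5 luminal and hormone receptor markers, ESR1 lay between 0.37 and 5.67 FPKM and PGR, listed in the MDA-MB468 tables, was at 0, but ERBB2 (25.3 to 57.7), GATA3 (17.8 to 61.6) and FOXA1 (11.3 to 38.4) were expressed in every library. The summed level of 5 adipocyte markers, of which HCC70 lists 4, did not exceed 8.61 FPKM in any library. The summed leukocyte markers reached 426 FPKM in HCC70, nearly all of it CD14 (170 to 419 FPKM), while PTPRC, their defining gene, did not exceed 1.06 FPKM in any library.

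Both antagonists lowered part of the group, and which enzymes fell differed between the lines. In HCC70, XY018 lowered the polyunsaturated desaturases FADS2 and FADS1 and the synthase FASN, and raised ELOVL6. In MDA-MB468 it lowered ACLY, ACSS2, FASN, ELOVL6 and FADS1, and GSK805 lowered 8 of the 10 enzymes, with SCD lowest. ATV alone raised 1 enzyme in HCC70 and 3 in MDA-MB468, and adding XY018 to ATV left every enzyme below its level with ATV alone in both lines.

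In HCC70, XY018 at 1.25 μM lowered 3 of the 10 enzymes (2.64% of all genes compared were lower) and raised 1 (1.93% higher), and at 2.5 μM it also lowered 3 (3.26%) and raised 1 (2.62%). ATV lowered none (1.32%) and raised 1 (2.22%), and both compounds together lowered 1 (2.93%) and raised none (4.38%). In MDA-MB468, XY018 lowered 2 enzymes at 1.25 μM (8.38%) and 5 at 2.5 μM (14.5%) and raised none (9.73% and 14.1%). ATV lowered none (0.803%) and raised 3 (1.37%), both compounds lowered 7 (12.2%) and raised none (13.1%), and GSK805 lowered 8 (16.6%) and raised none (17.6%). The GSK805 shares are over 19951 genes, from a table that lists more symbols. Over the 12059 compared genes also in the other MDA-MB468 table, a restriction added after seeing the data, they were 12.6% and 13.5%. Far more genes moved in MDA-MB468 than in HCC70, apart from the ATV libraries, so the same count of enzymes stands against a larger share of all genes there. The median log2 ratio of the 10 enzymes was -0.18, -0.27, 0.35 and -0.31 in HCC70 with XY018 at 1.25 μM, XY018 at 2.5 μM, ATV and both. It was -0.41, -0.64, 0.45 and -0.95 in MDA-MB468 in the same order and -1.16 with GSK805. The median over all genes compared lay between -0.02 and 0.01.

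**Figure D1:**
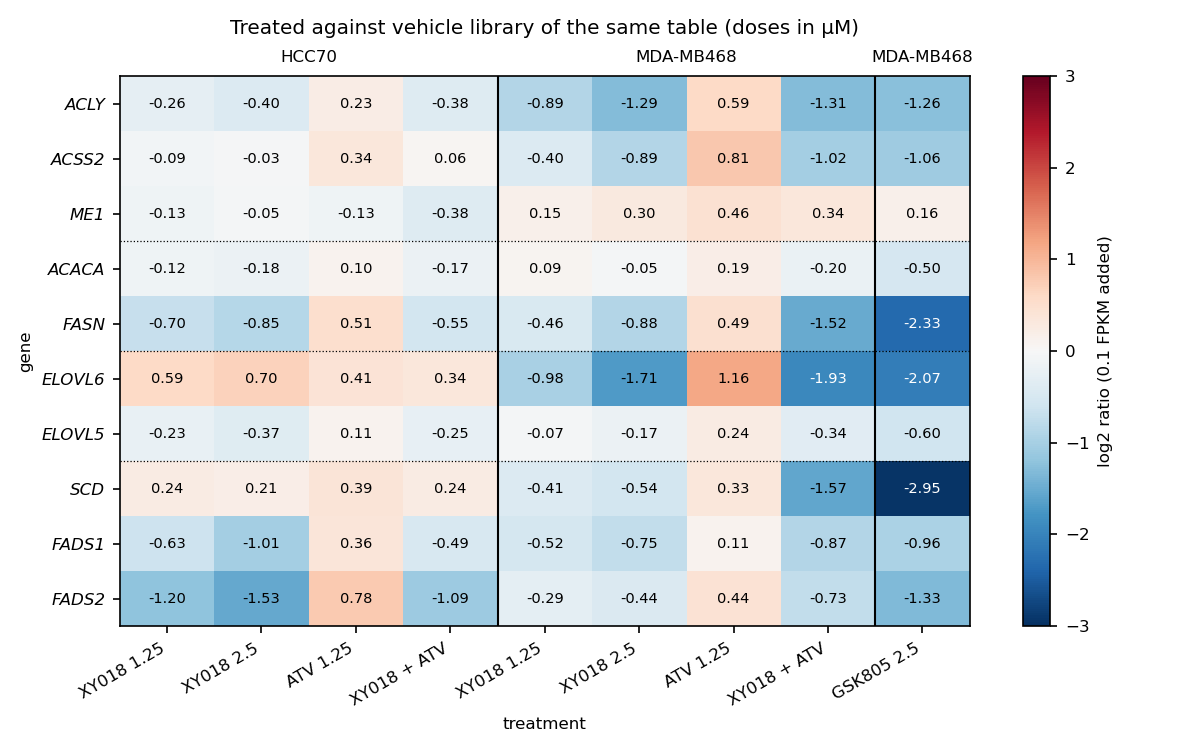
Log2 ratio of each of the 10 enzymes (rows, dotted lines separate supply, palmitate synthesis, elongation and desaturation) in each treated library against the vehicle library of its own table (columns), with blue below and red above vehicle. Blue fills most cells of the antagonist columns, and the ATV columns are red except for ME1 in HCC70. ELOVL6, SCD and, faintly, ME1 change colour between the lines in every XY018 column.

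The summed level of the 10 enzymes was 399 FPKM in vehicle-treated HCC70 cells, 329 and 308 with XY018 at 1.25 and 2.5 μM, 523 with ATV and 333 with both. In MDA-MB468 it was 1005 with vehicle, 749 and 613 with XY018, 1394 with ATV and 424 with both, and in the GSK805 experiment it went from 1955 to 566. FASN and SCD made up 39.6% of the sum in HCC70 vehicle cells, 68.3% in MDA-MB468 vehicle cells and 67.2% in the vehicle of the GSK805 experiment, so these sums follow mainly those genes in MDA-MB468.

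FASN was the most abundant enzyme mRNA in each vehicle library, at 79.2 FPKM in HCC70, 449 in MDA-MB468 and 1055 in the GSK805 experiment, and ELOVL6 the least, at 3.69, 2.98 and 5.33. In HCC70 the order after FASN was SCD, ACLY, FADS2, ELOVL5, ACSS2, ACACA, ME1, FADS1 and ELOVL6. The counting intervals of FASN and SCD overlapped there, as did those of ACLY, FADS2 and ELOVL5, and those of ME1 and FADS1. In MDA-MB468 the order was FASN, SCD, ACLY, ACSS2, ELOVL5, FADS2, ACACA, ME1, FADS1 and ELOVL6, with overlap only between ACSS2 and ELOVL5 and between ACACA and ME1. FADS2 thus ranked higher in HCC70 than in MDA-MB468. On tables normalized separately, the log2 ratio of the GSK805 vehicle to the other MDA-MB468 vehicle ranged from 1.71 for ACSS2 to -0.84 for FADS2. It was 1.23 for FASN, 1.09 for ACLY, 0.26 for ELOVL5 and 0.12 for both SCD and ME1. A difference in scale between the tables and a difference between the cultures cannot be told apart in these ratios. Their median over all genes was not computed.

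**Figure D2:**
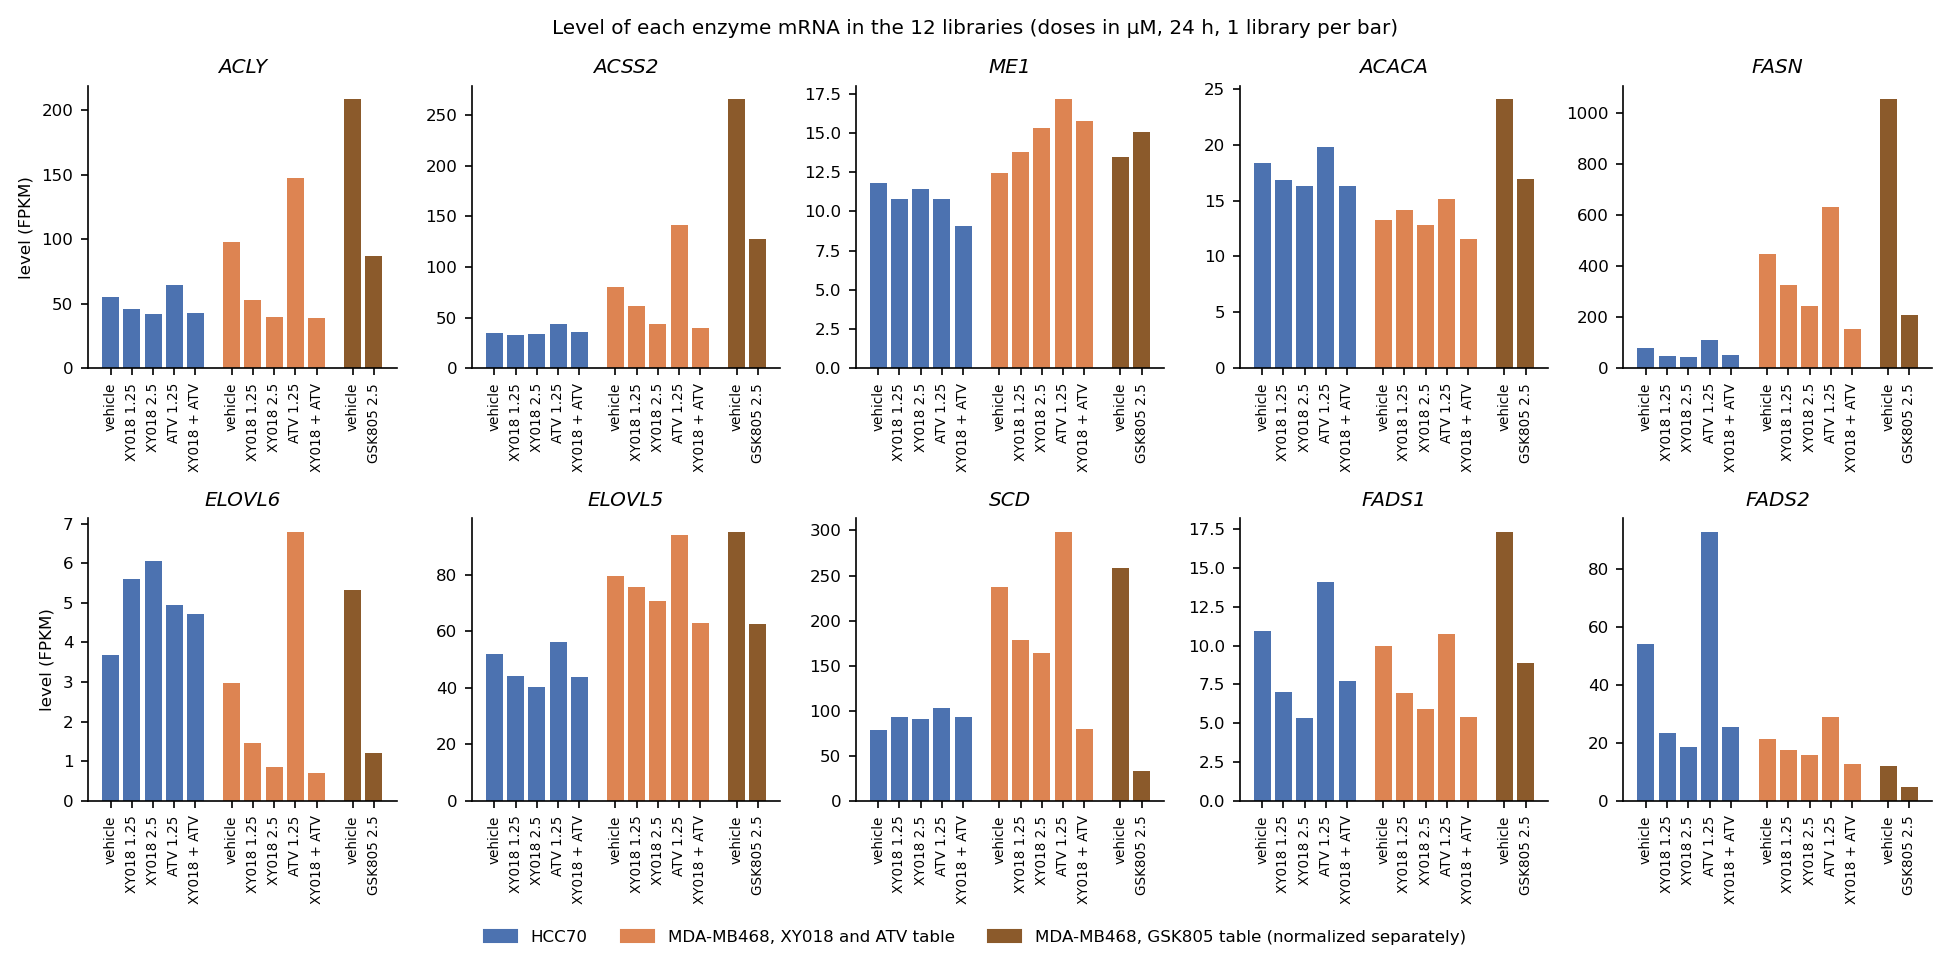
Level in FPKM of each enzyme mRNA in the 12 libraries, 1 bar per library, with HCC70 in blue, MDA-MB468 with XY018 or ATV in orange and the GSK805 experiment in brown. The ATV bar is the highest of the 5 for all 10 enzymes in MDA-MB468 and for 8 in HCC70, where ME1 and ELOVL6 are the exceptions.

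Among the suppliers of acetyl-CoA, ACLY (chromosome 17, 40023170 to 40086795 on GRCh37) was at 55.4 FPKM in HCC70 vehicle cells, 46.2 and 41.9 with XY018 at 1.25 and 2.5 μM, 64.9 with ATV and 42.7 with both. The 3 libraries with XY018 were the lowest, but no ratio passed 1.5-fold, with -0.40 (-0.49 to -0.31) at 2.5 μM. In MDA-MB468 ACLY was at 97.7, 52.8, 40.0, 148 and 39.3 FPKM in the same order. It fell by 0.89 (-0.94 to -0.84) at 1.25 μM and by 1.29 (-1.35 to -1.23) at 2.5 μM, and rose by 0.59 (0.55 to 0.64) with ATV. With both compounds it fell by 1.31, the same level as with the higher dose of XY018 alone. With GSK805 it went from 208 to 86.7 FPKM and fell by 1.26 (-1.33 to -1.20).

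ACSS2 (chromosome 20, 33459949 to 33515765) was at 34.6 FPKM in HCC70 vehicle cells, 32.5 and 33.8 with XY018, 43.9 with ATV and 36.0 with both, and none of these passed 1.5-fold. In MDA-MB468 it was at 80.8, 61.2, 43.5, 142 and 39.7 FPKM. There it fell by 0.89 (-0.97 to -0.82) with XY018 at 2.5 μM, rose by 0.81 (0.76 to 0.86) with ATV and fell by 1.02 (-1.10 to -0.95) with both. GSK805 took it from 265.5 to 127.5 FPKM, a log2 ratio of -1.06. So the ACSS2 levels spread widely in MDA-MB468 and little in HCC70.

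ME1 (chromosome 6, 83920121 to 84140770) passed 1.5-fold in none of the 9 comparisons. It was at 11.8, 10.8, 11.4, 10.8 and 9.1 FPKM in the HCC70 libraries (vehicle, XY018 1.25 μM, XY018 2.5 μM, ATV, both). The MDA-MB468 values were 12.4, 13.8, 15.3, 17.1 and 15.8 FPKM, so vehicle was the lowest of the 5, and with GSK805 it went from 13.5 to 15.1. Over the 9 comparisons its log2 ratios had a Pearson correlation of -0.21 with the median of the other 9 enzymes, while those of the other enzymes ranged from 0.57 for FADS2 to 0.95 for ACLY and FASN. These correlations are a description over comparisons that share vehicle libraries.

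Of the palmitate-making enzymes, ACACA (chromosome 17, 35441927 to 35766927) also passed 1.5-fold nowhere. It was at 18.4, 16.9, 16.3, 19.8 and 16.3 FPKM in HCC70 and at 13.3, 14.1, 12.8, 15.2 and 11.6 in MDA-MB468, and went from 24.0 to 16.9 with GSK805, a log2 ratio of -0.50 (-0.60 to -0.41). The ATV library was the highest in both lines.

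FASN (chromosome 17, 80036214 to 80056170), the enzyme that assembles palmitate, was at 79.2 FPKM in HCC70 vehicle cells, 48.7 and 43.9 with XY018 at 1.25 and 2.5 μM, 113 with ATV and 54.2 with both. It fell by 0.70 (-0.76 to -0.64) and by 0.85 (-0.91 to -0.79) with the 2 doses, had a ratio of 0.51 with ATV and of -0.55 with both, and was the 164th lowest of 11721 genes at 2.5 μM. Its MDA-MB468 levels were 449, 327, 244, 633 and 156 FPKM. The ratio was -0.46 at 1.25 μM, and FASN fell by 0.88 (-0.90 to -0.86) at 2.5 μM and by 1.52 (-1.54 to -1.50) with both compounds. GSK805 took it from 1055 to 209 FPKM and it fell by 2.33 (-2.36 to -2.31), a 5.04-fold difference. FASN and FADS1 were the enzymes lower in all 3 comparisons with an antagonist at 2.5 μM, and 7 of the 10 were below vehicle in all 3 (ACLY, ACSS2, ACACA, FASN, ELOVL5, FADS1 and FADS2). The shares of all genes that did so in all 3 were not computed. In the single comparisons 3.26% (HCC70), 14.5% (MDA-MB468) and 16.6% (GSK805) of all genes were lower.

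ELOVL6 (chromosome 4, 110967002 to 111120355), which extends palmitate to stearate, had opposite ratios in the lines with XY018. In HCC70 it was at 3.69 FPKM with vehicle, 5.60 and 6.07 with XY018 at 1.25 and 2.5 μM, 4.95 with ATV and 4.71 with both, and vehicle was the lowest. It rose by 0.59 (0.36 to 0.85) and 0.70 (0.48 to 0.96) with the 2 doses. In MDA-MB468 it was at 2.98, 1.46, 0.84, 6.80 and 0.71 FPKM, so the 3 libraries with XY018 were the lowest and ATV the highest. There it fell by 0.98 (-1.29 to -0.77), 1.71 (-2.17 to -1.51) and 1.93 (-2.42 to -1.73) with the low dose of XY018, the high dose and the combination, and rose by 1.16 (1.01 to 1.37) with ATV alone. GSK805 took it from 5.33 to 1.19 FPKM and it fell by 2.07 (-2.57 to -1.77). At 2.5 μM the difference in log2 ratio between the lines, MDA-MB468 minus HCC70, was -2.42 (-2.81 to -2.02).

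ELOVL5 (chromosome 6, 53132196 to 53213977) moved less than ELOVL6. It was at 52.0, 44.3, 40.1, 56.2 and 43.8 FPKM in HCC70 and at 79.7, 75.7, 70.8, 94.1 and 62.8 in MDA-MB468, with the ATV library highest in both lines. It fell only with GSK805, from 95.2 to 62.6 FPKM, by 0.60 (-0.71 to -0.51). The other ratios did not pass 1.5-fold.

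SCD (chromosome 10, 102106990 to 102124583), which makes oleate and palmitoleate, was at 78.6 FPKM in HCC70 vehicle cells, 93.2 and 90.8 with XY018, 103 with ATV and 92.8 with both. Vehicle was the lowest of the 5, and the ratios of 0.21 to 0.39 did not pass 1.5-fold. MDA-MB468 cells held 238, 178, 164, 299 and 79.7 FPKM of it, with ratios of -0.41 and -0.54 for the 2 doses of XY018, and it fell by 1.57 (-1.61 to -1.54) with both compounds. GSK805 took SCD from 259 to 33.4 FPKM. It fell by 2.95 (-3.03 to -2.87), a 7.72-fold difference and the lowest ratio of any enzyme in the 9 comparisons. The difference between the lines at 2.5 μM XY018 was -0.74 (-0.81 to -0.68), while with both compounds it was -1.81 (-1.89 to -1.74).

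FADS1 (chromosome 11, 61567099 to 61596790, minus strand) and FADS2 (61560452 to 61634826, plus strand) overlap in the annotation. In RefSeq the starts of FADS2 lie 599 and 800 bases inside FADS1, which runs the other way, and as the counting is not stated to use strand, reads in the shared stretch could be assigned to either gene. Their values are uncertain to that extent. FADS1 was at 10.9, 7.01, 5.36, 14.1 and 7.73 FPKM in HCC70 and at 9.95, 6.92, 5.89, 10.8 and 5.38 in MDA-MB468. It fell by 0.63 (-0.86 to -0.42) and 1.01 (-1.26 to -0.79) with the 2 doses of XY018 in HCC70, and by 0.75 (-0.92 to -0.59) at 2.5 μM and 0.87 (-1.05 to -0.72) with both compounds in MDA-MB468. GSK805 took it from 17.3 to 8.89 FPKM, and it fell by 0.96 (-1.16 to -0.76).

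FADS2 was at 54.1 FPKM in HCC70 vehicle cells, 23.4 and 18.7 with XY018, 93.0 with ATV and 25.3 with both. It fell by 1.20 (-1.34 to -1.08), 1.53 (-1.67 to -1.39) and 1.09 (-1.22 to -0.97) in the 3 libraries with XY018, where it stood 46th, 39th and 84th from the lowest among 11738, 11721 and 11792 genes. ATV raised it by 0.78 (0.69 to 0.87). In MDA-MB468 FADS2 was at 21.4, 17.5, 15.7, 29.0 and 12.8 FPKM, with ratios of -0.29 and -0.44 for XY018 alone, and fell by 0.73 (-0.87 to -0.61) with both compounds. With GSK805 it went from 11.9 to 4.67 FPKM and fell by 1.33 (-1.68 to -1.04). The difference between the lines at 2.5 μM XY018 was 1.09 (0.90 to 1.27), opposite in sign to that of ELOVL6 and SCD, and it was -0.03 (-0.09 to 0.04) for FASN.

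The promoters of ELOVL6 and SCD, whose ratios with XY018 had opposite signs in the lines, of FADS2, whose difference between the lines ran the other way, and of FADS1, which overlaps FADS2, are printed from RefSeq on GRCh38.p14, in windows of 300 bases that run from before the start site to just past it. Of the 10 enzymes, 9 had an entry, in 14 windows. Capitals mark the motifs found on either strand: CCAAT (the NF-Y box), GGGCGG (the GC box), AGGTCA (a nuclear receptor half-site) and CACGTG (the E-box). No 2 of these motifs overlap in the printed windows. The sterol regulatory element, spelled TCACNCCAC, was also searched.
SCD, chr10:100346983-100347282, plus strand: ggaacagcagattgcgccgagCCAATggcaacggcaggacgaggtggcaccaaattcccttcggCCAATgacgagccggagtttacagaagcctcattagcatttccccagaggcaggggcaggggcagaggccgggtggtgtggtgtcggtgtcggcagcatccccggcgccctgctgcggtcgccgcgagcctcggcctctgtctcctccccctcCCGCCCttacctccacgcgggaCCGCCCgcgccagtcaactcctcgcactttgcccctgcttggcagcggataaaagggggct
ELOVL6, chr4:110198566-110198865, minus strand: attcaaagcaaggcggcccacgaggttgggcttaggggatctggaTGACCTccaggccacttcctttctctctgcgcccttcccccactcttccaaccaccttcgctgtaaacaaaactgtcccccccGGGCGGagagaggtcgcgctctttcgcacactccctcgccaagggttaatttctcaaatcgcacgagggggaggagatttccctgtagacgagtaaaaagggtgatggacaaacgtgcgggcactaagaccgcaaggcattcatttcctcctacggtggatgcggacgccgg
FADS1, chr11:61816954-61817253, minus strand: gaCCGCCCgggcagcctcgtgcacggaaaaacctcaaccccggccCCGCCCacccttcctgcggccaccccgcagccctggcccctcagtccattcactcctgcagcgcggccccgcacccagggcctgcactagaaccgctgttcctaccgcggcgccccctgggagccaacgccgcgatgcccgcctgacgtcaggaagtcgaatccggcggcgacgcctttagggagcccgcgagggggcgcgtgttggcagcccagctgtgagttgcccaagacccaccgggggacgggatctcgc
FADS2, second start, chr11:61816154-61816453, plus strand: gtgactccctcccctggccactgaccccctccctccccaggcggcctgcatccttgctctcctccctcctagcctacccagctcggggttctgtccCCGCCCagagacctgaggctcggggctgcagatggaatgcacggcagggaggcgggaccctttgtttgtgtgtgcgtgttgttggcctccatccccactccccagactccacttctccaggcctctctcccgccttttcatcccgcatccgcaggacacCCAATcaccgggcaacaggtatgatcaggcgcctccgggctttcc

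SCD carried 2 CCAAT and 2 GC boxes in its window, and ELOVL6 carried 1 half-site and 1 GC box. FADS1 had 2 GC boxes, and the printed FADS2 window, at the second start, had 1 of each of CCAAT and GC box. The window of the other FADS2 start, which is not printed, held none of the motifs. Counted by window, CCAAT stood in 8 of the 14 (6 of the 9 enzymes) and in 34.6% of all 35116 RefSeq windows, the GC box in 11 of the 14 (8 enzymes) and in 45.0%, the half-site in 2 (ACACA and ELOVL6) and in 13.8%, and the E-box in 1 (ELOVL5) and in 7.26%. The sterol regulatory element as spelled here was in none of the 14 windows and in 1.13% of all. The windows of ACLY overlap each other, as do those of FADS2, so a motif in shared bases is counted in each window. A match is a run of letters in a window, and no match says only that these letters are not in these 300 bases.

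Doubling the dose of XY018 lowered none of the enzymes in HCC70 (1.36% of all genes compared were lower) and 1 in MDA-MB468 (1.73%), and raised none in either line (1.17% and 1.03% of all genes were higher). The median step from 1.25 to 2.5 μM was -0.10 in HCC70, where 7 enzymes were further down at the higher dose, and -0.19 in MDA-MB468, where 9 were. The share of all genes further down was not computed. In HCC70 the counting intervals of 5 of the 10 steps included 0. The enzyme that fell, in MDA-MB468, was ELOVL6, with a step of -0.73 (-1.17 to -0.44). Next there were ACSS2 at -0.49 (-0.57 to -0.41), FASN at -0.42 and ACLY at -0.40. In HCC70 the steps of FADS1 and FADS2 were -0.38 (-0.64 to -0.13) and -0.32 (-0.49 to -0.16). The dose step of ME1 in MDA-MB468 was 0.15 (0.02 to 0.29).

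Adding XY018 to ATV lowered 4 enzymes in HCC70 (2.54% of all genes) and 7 in MDA-MB468 (11.1%) and raised none (2.73% and 11.7% higher), and all 10 were below ATV alone in each line, although the counting intervals of ELOVL6 in HCC70 and ME1 in MDA-MB468 reached 0. The median difference was -0.32 in HCC70 and -1.50 in MDA-MB468. The share of all genes below ATV alone was not computed. FADS2 showed the largest difference in HCC70, -1.87 (-1.99 to -1.76), and ELOVL6 in MDA-MB468, -3.09 (-3.58 to -2.94). Adding ATV to XY018 at 1.25 μM, in contrast, lowered none in HCC70 (1.96%), with a median difference of -0.01, and 4 in MDA-MB468 (1.76%), with a median of -0.43, and raised none (3.75% and 2.1% higher). Those 4 were SCD at -1.16 (-1.20 to -1.12), FASN at -1.06 (-1.09 to -1.04), ELOVL6 at -0.95 (-1.42 to -0.67) and ACSS2 at -0.62 (-0.70 to -0.55). In MDA-MB468 the enzymes thus lay above vehicle with ATV alone and, apart from ME1, below XY018 alone when both were given.

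The level with both compounds was set against the sum of the log2 ratios of the single compounds, from the 4 libraries concerned. All 10 enzymes lay below that sum in each line. Of all genes, 50.1% were below it for HCC70 and 52.0% for MDA-MB468. The median departure was -0.28 in HCC70, where the counting intervals of 7 enzymes lay below 0 (9.36% of all genes), and -0.95 in MDA-MB468, where all 10 did (17.8%). In MDA-MB468 the sum for SCD was -0.09 and the measured ratio -1.57, a departure of -1.49 (-1.53 to -1.44). FASN departed by -1.56 (-1.58 to -1.53), ACSS2 by -1.43 (-1.53 to -1.34) and ELOVL6 by -2.11 (-2.51 to -1.71). In HCC70 the departures were largest for FADS2, -0.67 (-0.84 to -0.49), and ELOVL6, -0.66 (-0.99 to -0.33). The intervals again hold counting error only, from 1 library each.

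**Figure D3:**
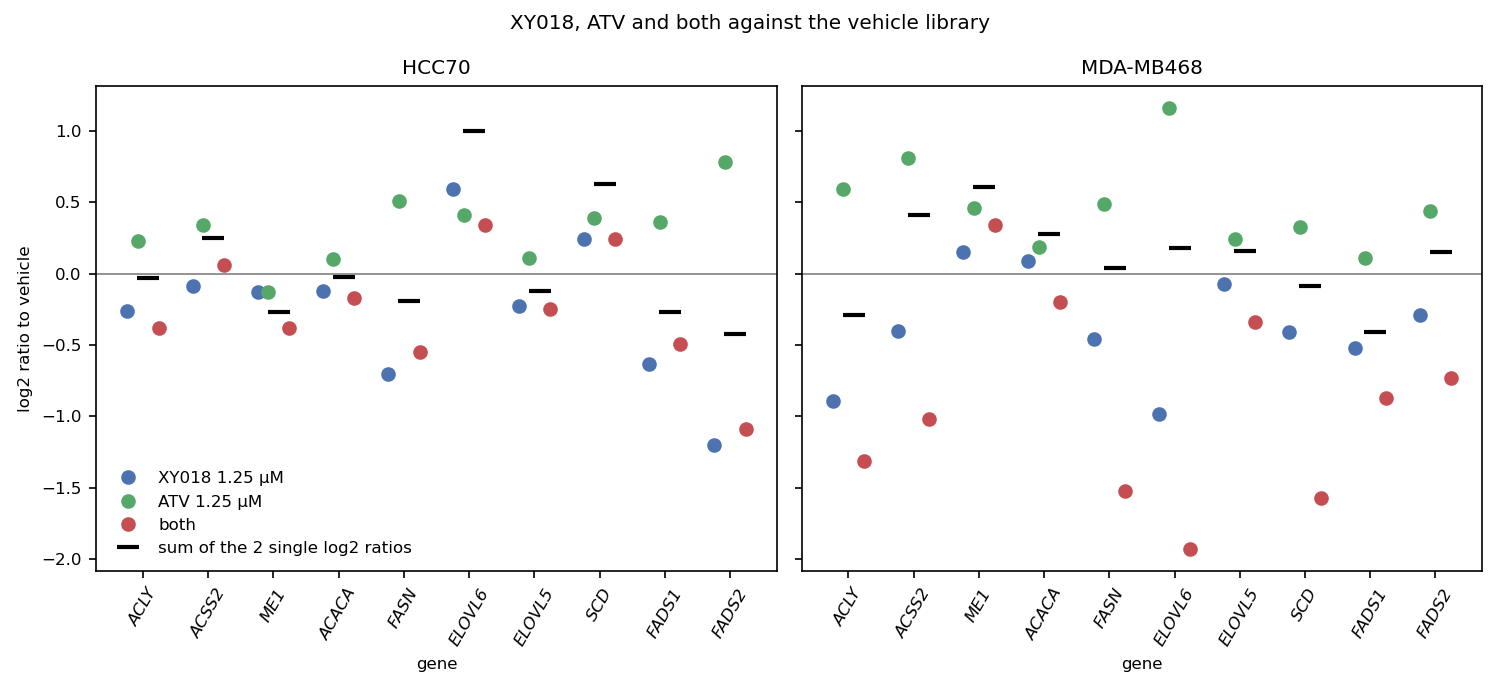
Log2 ratio to vehicle of each enzyme with XY018 at 1.25 μM (blue), ATV at 1.25 μM (green) and both (red), with the sum of the single ratios as a black bar, in HCC70 (left) and MDA-MB468 (right). The red points lie below the black bars for all 10 enzymes in both lines, by -0.28 at the median in HCC70 and by -0.95 in MDA-MB468.

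XY018 and GSK805 were compared at 2.5 μM and 24 h in MDA-MB468, the 1 pair of antagonists with a matched dose, each against its own vehicle. The ratio was lower with GSK805 than with XY018 for 9 of the 10 enzymes (49.4% of the 11322 genes compared in both tables), and the counting interval of the difference lay below 0 for 6 of them (30.5% of all genes). SCD differed most, at -2.41 (-2.50 to -2.33), followed by FASN at -1.46 (-1.49 to -1.42) and FADS2 at -0.89 (-1.23 to -0.56). ACACA differed by -0.45 (-0.58 to -0.32), ELOVL5 by -0.43 (-0.55 to -0.32) and ACSS2 by -0.17 (-0.26 to -0.07). The intervals of ELOVL6 (-0.86 to 0.14), FADS1 (-0.46 to 0.05), ME1 (-0.39 to 0.11) and ACLY (-0.06 to 0.11) included 0, which does not show that the compounds act alike on them. The compounds were tested in separate experiments whose vehicle libraries differed, so compound and experiment cannot be told apart here.

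**Figure D4:**
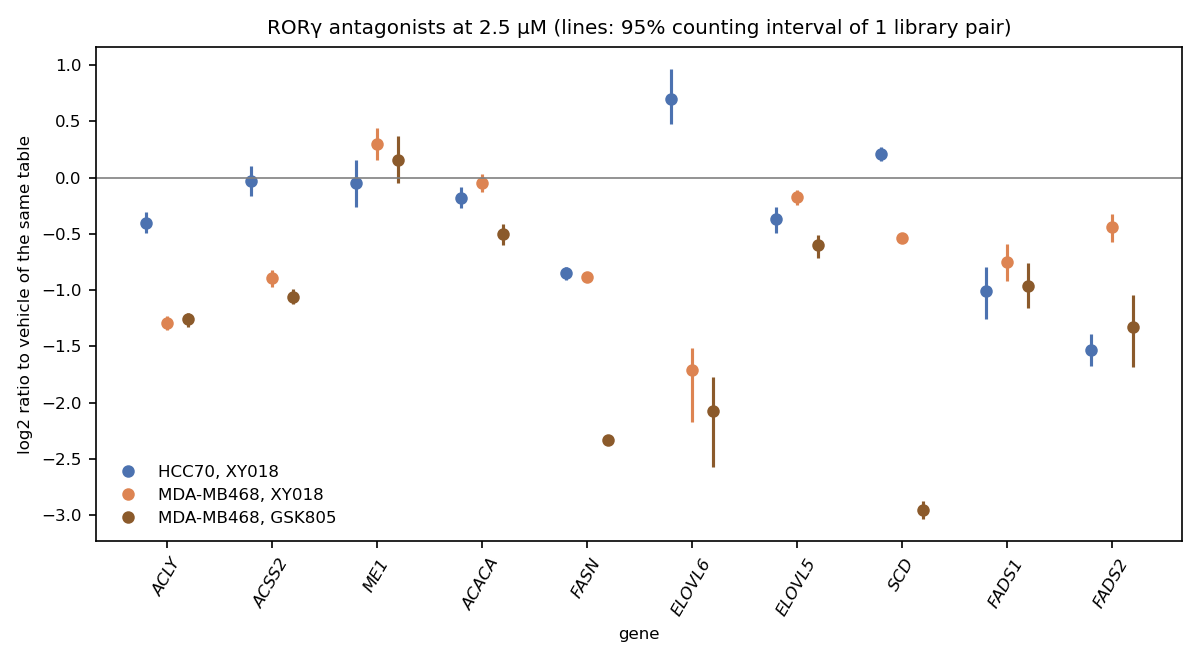
Log2 ratio to vehicle of each enzyme with an antagonist at 2.5 μM, for XY018 in HCC70 (blue), XY018 in MDA-MB468 (orange) and GSK805 in MDA-MB468 (brown), with vertical lines for the 95% counting interval. The brown points of SCD and FASN lie far below the orange ones, at -2.95 and -2.33, while those of ACLY, -1.26 and -1.29, coincide.

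The genes around the pathway, 81 in 4 lists, had list medians nearer 0 than the enzymes. At 2.5 μM XY018, 8 of 70 compared were lower in HCC70, a share of 11.4% against 3.26% of all genes. There 3 were higher, 4.29% against 2.62%. In MDA-MB468 10 of 74 were lower, 13.5% against 14.5% of all genes, and 7 higher, 9.46% against 14.1%. With GSK805 15 of 73 were lower, 20.5% against 16.6%, and 4 higher, 5.48% against 17.6%. Over genes also in the other MDA-MB468 table, the GSK805 shares of all genes were 12.6% lower and 13.5% higher. The medians of the 4 lists stayed between -0.31 and 0.14 in all 9 comparisons, and in each were nearer 0 than that of the 10 enzymes. In the list of acetyl-CoA, citrate and NADPH supply, SLC25A1, the mitochondrial citrate carrier, fell in HCC70 with XY018 (from 110 to 71.0 and 72.1 FPKM) and with GSK805 (from 121 to 62.4). AACS, which activates acetoacetate, rose with ATV in MDA-MB468 from 15.3 to 24.6 FPKM, and ME2, the mitochondrial malic enzyme, rose in HCC70 at 2.5 μM from 13.1 to 20.7.

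Among the other chain-building enzymes, ACACB, the mitochondrial carboxylase, was under 1 FPKM in HCC70, and SCD5, a second stearoyl-CoA desaturase, passed 1.5-fold nowhere, with ratios from -0.48 to 0.17. FADS3, the neighbour of FADS2 on chromosome 11, rose in MDA-MB468 with XY018 at 1.25 and 2.5 μM and with both compounds, from 13.6 to 21.5, 21.2 and 21.7 FPKM, while the ratios of FADS1 and FADS2 in those libraries were below 0. It fell with GSK805, from 16.1 to 9.30 FPKM, and in HCC70 at the higher XY018 dose, from 3.94 to 2.36. HACD3, a dehydratase of the elongation cycle, fell in MDA-MB468 with XY018 from 31.9 to 18.2 and 16.3 FPKM, and ELOVL3 fell in HCC70 at 2.5 μM, from 5.33 to 3.43. Among the genes of lipid assembly, PNPLA3, a lipase that sits on lipid droplets, fell in HCC70 from 6.87 to 2.85 and 2.46 FPKM with XY018 and rose in MDA-MB468 with ATV from 3.11 to 7.28. The 21 cholesterol enzymes had a median log2 ratio of -1.46 against -0.27 for the fatty acid enzymes in HCC70 at 2.5 μM, -0.83 against -0.64 in MDA-MB468 and -1.50 against -1.16 with GSK805. The 22 fatty acid oxidation genes, the opposing pathway, stayed between -0.07 and 0.10 at the median.

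**Figure D5:**
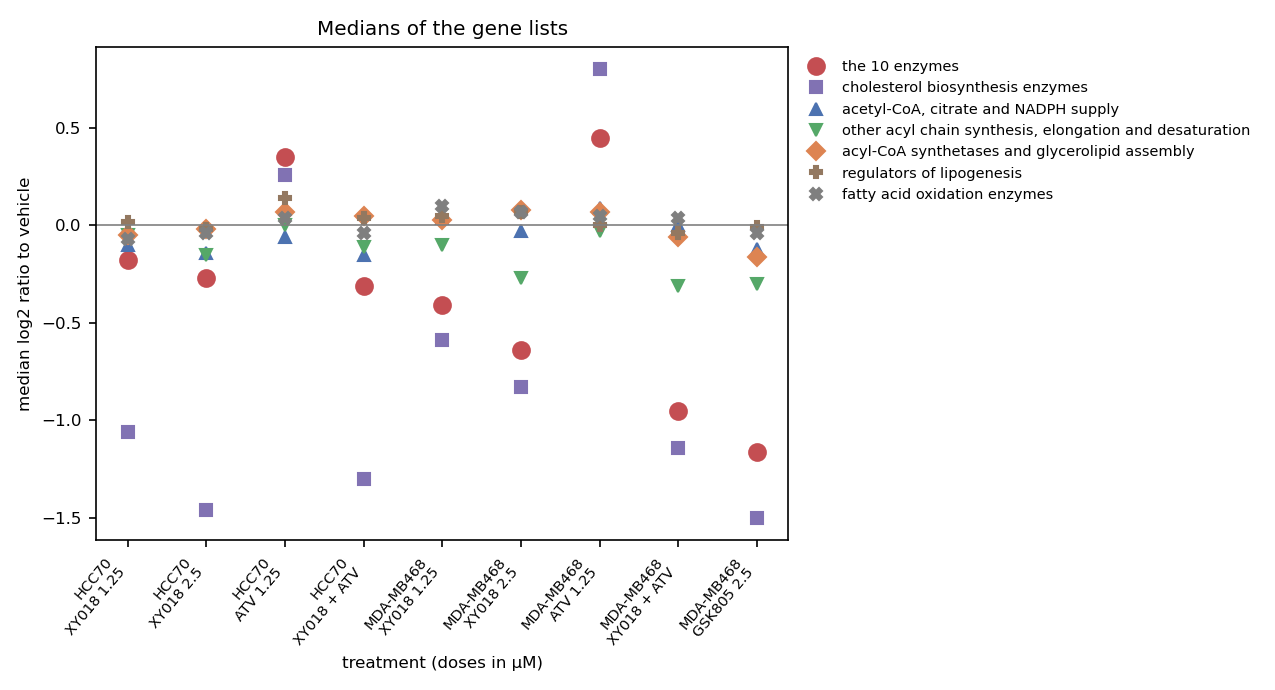
Median log2 ratio to vehicle of the 10 enzymes (red circles) and of 6 other gene lists in the 9 comparisons. The 10 enzymes and the cholesterol enzymes leave 0 in the same direction in every comparison, the other lists stay between -0.31 and 0.14, and the fatty acid enzymes are much nearer 0 than the cholesterol enzymes in the HCC70 libraries with XY018.

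Of the regulators, SREBF1, which encodes SREBP-1, rose in HCC70 with XY018 from 37.4 FPKM to 64.9, 69.9 and 87.6 with 1.25 μM, 2.5 μM and both compounds, ratios of 0.79, 0.90 and 1.23. In MDA-MB468 it was at 41.4 with vehicle, 37.0 and 40.6 with XY018 and 28.9 with ATV, and fell to 21.9 with both, a ratio of -0.92. GSK805 took it from 188 to 45.6 FPKM, where it fell by 2.04. That fall rests on 1 vehicle library at 188 FPKM, against 41.4 in the other MDA-MB468 vehicle, on tables normalized separately. SREBF1 lay on the same side of vehicle as SCD and ELOVL6 in the HCC70 libraries with XY018 and, below it, with both compounds in MDA-MB468 and with GSK805. With ATV in MDA-MB468 it did not, as the SREBF1 ratio was -0.52 while those of SCD and ELOVL6 were 0.33 and 1.16, and with XY018 alone there its ratios of -0.16 and -0.03 stood beside -0.98 and -1.71 for ELOVL6. In the HCC70 libraries with XY018, SREBF1 lay opposite to most of the group. There 8, 8 and 7 of the 10 enzymes were below vehicle (1.25 μM, 2.5 μM and both), FASN, FADS1 and FADS2 among them. The median log2 ratio of all genes compared in those libraries was -0.01, -0.02 and -0.01. Whether SREBF1 bears on the enzymes was not tested. SREBF2, which encodes SREBP-2, passed 1.5-fold in no comparison, with ratios from -0.52 to 0.24. INSIG1, a sterol-sensing retention factor of the SREBP pathway, fell in all 7 libraries with an antagonist, from 32.3 to 7.79 FPKM at 2.5 μM in HCC70 and from 58.6 to 10.6 with GSK805. MLXIPL, the carbohydrate-responsive regulator, was at 0.10 FPKM or less in HCC70 and at most 2.25 FPKM elsewhere.

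Of the genes outside the group whose ratios over the 9 comparisons followed the median of the enzymes most closely, among 7118 genes that reached 5 FPKM in each of the 3 vehicles, RDH11 had a Pearson r of 0.99, LRP8 of 0.98, and DBI and POLD2 of 0.97. LRP8 is a lipoprotein receptor, DBI binds acyl-CoA, RDH11 is a retinol dehydrogenase and POLD2 a subunit of DNA polymerase delta. The comparisons share vehicle libraries within each table, and the ranking picks the highest of many genes, so these values are a description.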

How the data were processed

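The study treated HCC70 and MDA-MB468 cells for 24 h and prepared TruSeq RNA libraries from total RNA, sequenced on an Illumina instrument. Per the labels and methods the authors aligned reads to GRCh37/hg19 (BWA, Bowtie) and used Cufflinks for quantification. Tool versions are not given in the sources used here. The authors deposited FPKM values in 3 tables, each normalized on its own. The headers name no unit, and the values and the named quantifier fit FPKM. No column of per-sample values was left unmapped to a sample.

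The members and all gene lists were chosen with earlier results of these data known. One entry per symbol was kept (the one with the highest mean). Log2 ratios were computed with a pseudocount of 0.1 FPKM against the vehicle of the same table, for genes that reached 1 FPKM in one library of the pair or both, and called at 1.5-fold, the threshold of the study. With 1 library per condition no test was run. Library depth was estimated from the spacing of low FPKM values, using transcript lengths of GENCODE on GRCh37 and an offset to length chosen per library, and is approximate. The fragments of a gene follow from its FPKM, its length and the depth. The 95% intervals are exact Clopper-Pearson for ratios, Poisson for levels, and normal approximations from fragment numbers for differences of ratios, and cover counting error only. The depth and fold calculations were tested on simulated data. Those data were drawn at the estimated depths, so the check covers the calculation and cannot show that the depths are right.

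Named outside the members were per list and comparison the gene farthest from a log2 ratio of 0, if it reached 5 FPKM in one library of the pair or both (those not printed are summarised by the list counts), SREBF1, SREBF2, INSIG1, MLXIPL, ACACB, SCD5, FADS3 and SLC25A1, and the 5 genes most like the members' median, of which 1 is not reported here. The alternatives were pseudocounts of 1 and 0.01 FPKM, rescaling that sets each comparison's median log2 ratio to 0, a 2-fold threshold, no filter, a filter at 5 FPKM, entries of a symbol summed, and GSK805 against the other MDA-MB468 vehicle. The restriction to genes in both MDA-MB468 tables was added after seeing the data. Proteins of the members were not analysed here. FASN has no printed promoter. The software was Python 3.11.15 with scipy 1.17.1, pandas 2.3.3, matplotlib 3.10.9 and numpy 2.4.6.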

Additional observations from a re-analysis of the deposited data

Results flagged for a closer look

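In 3 of the 10 enzymes every library with XY018 lay on one side of vehicle in HCC70 and on the other side in MDA-MB468. The share of all genes with such signs was not computed, and the libraries of a line share 1 vehicle, so this count describes the enzymes only. The difference between the lines was not tested, since each condition has 1 library. For ELOVL6 the log2 ratio at 2.5 μM XY018, MDA-MB468 minus HCC70, was -2.42, and its counting interval in each line left out 0. For SCD it was -0.74, with ratios of 0.21 in HCC70 and -0.54 in MDA-MB468. For ME1 it was 0.35, with ratios of -0.05 and 0.30, neither past 1.5-fold, and the HCC70 interval included 0.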

How the results depend on the processing

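No paired analysis was possible because the labels give no replicate numbers and each condition has 1 library. A pseudocount of 0.01 FPKM and rescaling left every count of the 10 enzymes against vehicle where it was and every median within its counting interval. All 10 passed the filter in every comparison and have 1 entry per table, so their counts and ratios are the same without a filter and with entries summed. With a pseudocount of 1 FPKM the enzymes higher with XY018 at 1.25 μM in HCC70 went from 1 to 0 and those lower from 3 to 2, where FADS1 had a ratio of -0.57. It also brought the ELOVL6 ratios in MDA-MB468 nearer 0, from -0.98 to -0.69 at 1.25 μM XY018 and from -1.93 to -1.22 with both compounds. At 2.5 μM XY018 the ELOVL6 ratio went from -1.71 to -1.11 in MDA-MB468 and from 0.70 to 0.59 in HCC70, so the line difference shrinks. At a 2-fold threshold the enzymes lower went to 1 and 2 with XY018 at 1.25 and 2.5 μM in HCC70. In MDA-MB468 they went to 0 and 2 with the same doses, to 5 with both compounds and to 6 with GSK805. The enzymes higher went to 0 with either dose of XY018 and with ATV in HCC70, and to 1 with ATV in MDA-MB468. A filter at 5 FPKM drops ELOVL6 from the comparisons with XY018 in MDA-MB468. It gave 1, 4 and 6 enzymes lower there at 1.25 μM, 2.5 μM and with both compounds, and a median of -0.54 at 2.5 μM. Against the vehicle of the other MDA-MB468 table, normalized separately, GSK805 lowered 4 enzymes and raised 1, with a median of -0.26, and the ratio of ACSS2 turned from -1.06 to 0.66. Of all 12039 genes compared at that setting, 1133 were lower and 5982 higher. With its own vehicle, 1523 and 1628 of 12059 genes in both tables were. The upward shift was thus not confined to the enzymes. The cause was not tested. Restricted to genes in both MDA-MB468 tables, an alternative chosen after seeing the data, GSK805 still lowered 8 enzymes, while the share of all genes lower went from 16.6% to 12.6%. The counts of all genes moved to between 0.15 and 0.71 times their value with a filter at 5 FPKM, to 0.16 to 0.53 times at 2-fold, to 0.33 to 0.83 times with a pseudocount of 1 FPKM and to 1.35 to 5.95 times without a filter. ELOVL6, at 66 fragments in its lowest library, is the enzyme whose ratios are least precise.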
